A study of Mus musculus with 28 samples.

Results

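Of the 55450 genes in the deposited RNA-seq table, 30 had a transient peak of expression 1h after the induction of C/EBPα in Pre-B cells and lower expression at 12h and 48h. The genes were chosen from mean levels at the 4 time points, after median-of-ratios scaling of the TPM (a share of all transcripts in a library, corrected for transcript length). A gene entered when its scaled 1h mean was at least 2, at least 2 times the 0h mean plus 0.5, and at least 1.5 times both the 12h and the 48h mean. Predicted genes, small RNAs and mitochondrial genes were left out by their symbols, which removed 45 of the 75 genes that met the numbers, 14 of them miRNA and 13 snoRNA genes. Of the 30 genes, 28 were protein-coding, 1 was an immunoglobulin V segment (Ighv14-2) and 1 a ribosomal RNA copy (n-R5s156). The choice used the means of all 12 libraries, so the height of the 1h peak is a description and carries no test. The rule also held the 0h mean under a tighter ceiling relative to 1h (2 times) than the 12h and 48h means (1.5 times). This favours higher 12h and 48h levels than at 0h among the genes chosen. In the other direction, the ceiling of 1.5 times leaves out genes that rise late and limits how far a member can stand above 0h. Differences of the members at 12h and 48h from 0h are therefore given as descriptions too, with no p-value printed. Where such a difference is named as called, it passed an adjusted p under 0.05 and a fold change over 2. A call is a label of size against spread, not an independent test.

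The cells were C10, 1 mouse Pre-B line with the C/EBPαER fusion, in which rat C/EBPα is joined to the hormone-binding part of the estrogen receptor and switched on by β-estradiol. All 12 libraries came from this line, with 3 biological replicates each at 0h (uninduced) and at 1h, 12h and 48h of treatment. The treatment was 100 nM β-estradiol together with 10 nM IL-3 and CSF-1, so effects of C/EBPα, of the hormone and of the cytokines cannot be told apart. No vehicle or cytokine-only culture at matched times was analysed here. The labels do not say whether the replicates were separate cultures, so p-values measure the spread between these libraries. Promoter Capture Hi-C (PCHi-C), which enriches ligated DNA fragments for those that hold promoters, was deposited as 1 merged interaction list per time point.

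C/EBPα is a basic leucine zipper transcription factor that directs progenitors to the myeloid lineage and, when forced into B cell precursors, converts them to macrophage-like cells. A hormone-bound receptor fusion moves from the cytoplasm to the nucleus, which makes the earliest transcriptional changes accessible. Genes with a brief early peak are often unstable transcripts of signalling feedback, stress and transcription control, and their level can fall through lower transcription or faster decay, which a measurement of total RNA does not separate.

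The promoters of 4 members are printed as examples of matches to 2 of the motifs searched for. They were picked by hand, and the other members with these letters are named below the sequences. RefSeq windows (GRCm38.p6) of 250 bases before to 50 after an annotated start were found by symbol for 19 members, in 31 windows. Among those not matched were Eid3, Ets1, Gclc, Ighv14-2, P2rx3, Pde7a, Plagl2, Socs2 and n-R5s156. The second Ddit3 row was not looked up because it shares its symbol with another gene. Each sequence is given as the 250 bases before the start, read in the direction of the gene. Capitals mark TTGCNNAA, a C/EBP motif, in Gadd45a (chr6:67037408-67037657, minus strand), Gfi1 (chr5:107725806-107726055, minus strand) and Plxna3 (chrX:74328816-74329065, plus strand), and TGACNNNGC, the core of the antioxidant response element, in Txnrd1 (chr10:82858956-82859205, plus strand).
Gadd45a: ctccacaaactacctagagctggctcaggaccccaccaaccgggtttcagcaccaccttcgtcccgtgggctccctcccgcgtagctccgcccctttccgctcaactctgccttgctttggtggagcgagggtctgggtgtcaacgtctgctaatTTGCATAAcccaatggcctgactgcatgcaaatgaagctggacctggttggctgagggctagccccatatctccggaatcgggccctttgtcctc
Gfi1: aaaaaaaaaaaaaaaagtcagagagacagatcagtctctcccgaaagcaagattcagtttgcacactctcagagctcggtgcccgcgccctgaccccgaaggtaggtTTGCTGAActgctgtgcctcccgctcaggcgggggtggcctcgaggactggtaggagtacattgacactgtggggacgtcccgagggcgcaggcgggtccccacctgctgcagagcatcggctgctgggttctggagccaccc
Plxna3: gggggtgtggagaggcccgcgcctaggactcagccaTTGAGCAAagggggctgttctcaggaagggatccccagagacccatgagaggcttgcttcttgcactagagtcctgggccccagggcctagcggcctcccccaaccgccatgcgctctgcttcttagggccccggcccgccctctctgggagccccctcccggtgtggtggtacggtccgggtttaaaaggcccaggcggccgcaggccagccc
Txnrd1: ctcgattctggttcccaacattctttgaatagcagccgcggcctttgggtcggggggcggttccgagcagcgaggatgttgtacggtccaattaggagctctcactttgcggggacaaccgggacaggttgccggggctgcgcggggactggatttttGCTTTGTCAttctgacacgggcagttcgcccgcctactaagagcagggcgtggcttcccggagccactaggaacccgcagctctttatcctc

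The capitals start 95 bases before the start in Gadd45a, 143 in Gfi1, 214 in Plxna3 and 92 in Txnrd1, and in Plxna3 and Txnrd1 the motif is on the strand opposite to the gene. In Gfi1 and Txnrd1 the windows of other annotated starts did not hold the marked letters. Both strands were searched. The C/EBP letters TTGCNNAA were present in 4 of 31 member windows (12.9%; Gadd45a, Gfi1, Lmo4 and Plxna3), in 10.8% of all 32851 windows and in 7.92% of the 5773 windows of other genes with a scaled 1h mean of at least 2. The antioxidant letters, added after the members were known, were in 7 windows (22.6%; Chst15, Frat2, Mid1, Spen, Txnrd1 and Ube2f), against 12.4% of all windows and 14.9% of those of the other expressed genes. Of the other motifs, the STAT letters TTCNNNGAA were in 2 windows, both of Txnrd1 (6.45%, against 8.30% of all and 6.10% of the other expressed genes). TATAAA was in 1 (Frat2, 3.23%, against 13.6% and 6.62%) and the NF-kB consensus in 1 (Btg3, 3.23%, against 4.51% and 4.99%). TGACGTCA (CRE), TGANTCA (AP-1) and the CArG box were in none of the 31 windows, against 1.79%, 7.81% and 1.63% of all windows and 3.26%, 4.07% and 1.28% of those of the other expressed genes. These matches describe letters, not binding. The median share of G and C was 64.3% for members, 61.7% for the other expressed genes and 52.7% over all windows.

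The 1h means ranged from 2.04 (Rasl10a) to 43.1 (Mid1) scaled TPM, with a median of 8.98, and 12 members were at 10 or above. For the 28 members above 0 at 0h, the 1h mean was 2.29 to 23.1 times the 0h mean, with a median of 3.44. In 25 members all 3 libraries of 1h lay above all 9 others, a pattern that the choice favours and that 2.55% of the 16415 genes tested showed. Aak1, Btg3, Gfi1, n-R5s156 and the second Ddit3 row did not show it. In limma on log2(scaled TPM + 0.1), 26 members were called higher at 1h than at 0h (adjusted p under 0.05 and a fold change over 2; 4.08% of all genes were called higher and 2.83% lower, no member lower), 18 higher at 1h than at 12h (5.62% of all genes, with 7.74% lower) and 24 higher at 1h than at 48h (15.1%, with 15.2% lower). These 3 contrasts were used to choose the genes and nothing is read from the counts. E2f7, Ighv14-2, n-R5s156 and the second Ddit3 row were not called at 1h against 0h. Among the unstable calls of that contrast was Ets1, lost when any single 0h or 1h replicate was left out. Btg3 and P2rx3 lost the call in several such fits.

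**Figure D1:**
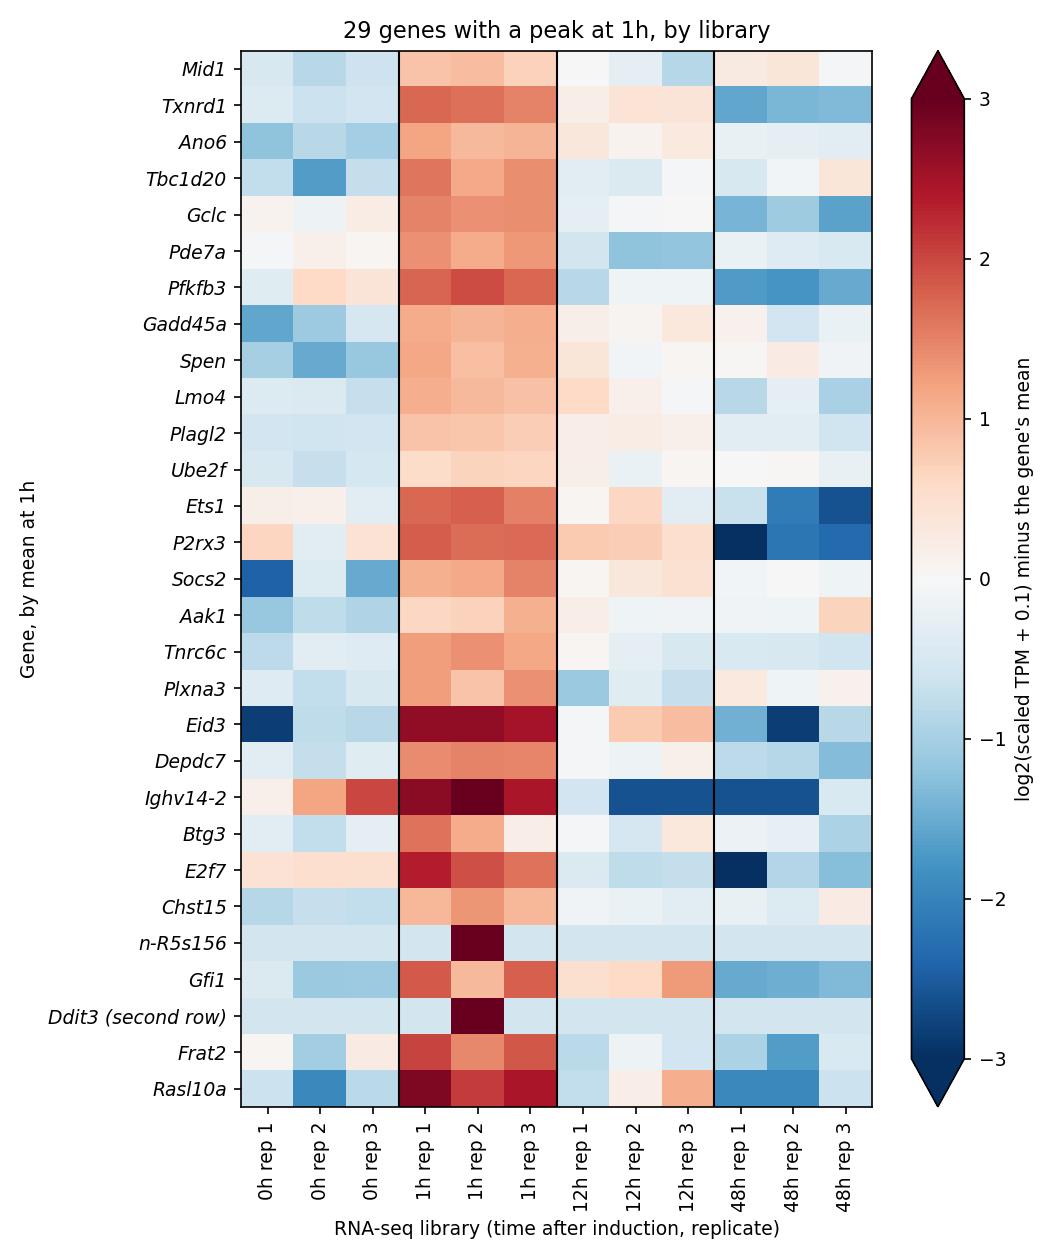
Heat map of 29 members (rows, by 1h mean) in the 12 RNA-seq libraries (columns), coloured by log2(scaled TPM + 0.1) minus the gene's mean over the libraries. The 1h columns are the darkest red for most rows, whereas n-R5s156 and the second Ddit3 row are coloured in 1h replicate 2 alone.

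For 2 members the peak rested on 1 library. The n-R5s156 row, an rRNA copy (chr7:99497718-99497822), was at 10.3 scaled TPM in 1h replicate 2 and listed at 0 in the other 11 libraries. The second row named Ddit3 (ENSMUSG00000116429, chr10:127290829-127293753) was at 9.08 in that library and listed at 0 in the others. Its exonic length is 0.105 kb and it overlaps the main Ddit3 gene on the same strand, so reads could be assigned to either. The main Ddit3 row, the stress transcription factor CHOP, had no peak, with scaled means of 5.15 at 0h and 4.65 at 1h. A repeated rRNA gene and an overlapping short model are uncertain in RSEM values, and both are left out of the levels that follow.

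Because the choice used all replicates, its stability was measured on replicates it had not seen. Genes were chosen by the rule on 2 replicates per time point, and the same rule was then read in the left-out replicate. Of 89 such choices over the 3 rounds, 58 (65.2%) met the whole rule in the unseen replicate (72.0%, 66.7% and 58.8% with replicate 1, 2 and 3 left out). Of all other genes with a 1h level of at least 2, 0.282% did so. Those other genes had failed the rule in the 2 replicates used, which by itself favours a low share. The size factors came from all libraries, the left-out ones included. The 1h library was the highest of the 4 unseen libraries for 87.6% of the choices and for 18.2% of the other genes.

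Txnrd1, Gclc and Pfkfb3 are enzymes of redox balance and sugar metabolism. Txnrd1 (chr10:82833951-82897712), the cytosolic thioredoxin reductase, which keeps thioredoxin reduced with NADPH, was at 8.96, 7.66 and 7.99 scaled TPM in the 3 libraries of 0h and at 39.9, 38.0 and 33.8 at 1h. It was at 13.8, 16.0 and 15.7 at 12h and at 4.02, 4.60 and 4.74 at 48h. No time points overlapped, and the 48h level was below that before induction. Relative to 0h the log2 difference was 0.88 ± 0.12 (SE) at 12h and -0.87 ± 0.12 at 48h, both within the 2-fold limit and so not called. With TPM as deposited both were called, at 1.21 and -1.27.

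Gclc (chr9:77754535-77794485), the catalytic subunit of glutamate-cysteine ligase, makes the precursor of glutathione. It was at 5.0, 4.19 and 5.42 at 0h, at 13.2, 12.2 and 12.5 after 1h, at 3.84, 4.46 and 4.61 by 12h and at 1.71, 2.19 and 1.46 by 48h. The 0h and 12h libraries overlapped and all 48h libraries were lower. The log2 difference from 0h to 48h was -1.41 ± 0.17 (SE), called lower. Its partner Gclm, the regulatory subunit, just missed the rule. It was at 3.42 ± 0.96 (SD, n = 3) at 0h, 7.04 ± 0.325 after 1h, 3.88 ± 0.818 by 12h and 1.84 ± 0.198 by 48h.

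A list of 25 genes of the NRF2 antioxidant response was put together after the members were known and supports nothing. Of the 24 tested, 8 were called higher at 1h than at 0h and none lower, beside 4.08% higher and 2.83% lower over all genes. They were Gclc, Gclm, Txnrd1, Srxn1, Hmox1, G6pdx, Mafg and Nfe2l2. Only Gclc and Txnrd1 met the peak rule. Hmox1, the heme oxygenase, went from a mean of 1.21 at 0h to 4.99 at 1h, 5.66 at 12h and 17.2 at 48h. Nfe2l2, which encodes NRF2 itself, was at 2.98, 10.3, 10.2 and 24.5.

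Pfkfb3 (chr2:11471433-11554077) makes the sugar bisphosphate that activates phosphofructokinase and so speeds glycolysis. It was at 2.55, 5.03 and 4.35 at 0h, at 11.3, 13.2 and 11.2 after 1h, at 1.82, 3.00 and 3.01 by 12h and at 0.956, 0.906 and 1.10 by 48h. All 1h libraries were at least 2 times the highest of any other time, and all 48h libraries were the lowest. At 48h it was called lower than at 0h, with a log2 difference of -1.85 ± 0.26 (SE).

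Transcription regulators among the members included Ets1, Gfi1, Spen, E2f7, Lmo4, Plagl2 and Eid3. Ets1 (chr9:32636221-32757820), an ETS factor of lymphoid cells, was at 3.24, 3.19 and 2.27 at 0h and at 9.63, 10.2 and 8.41 at 1h. It was at 3.00, 4.49 and 2.23 at 12h and at 1.78, 0.599 and 0.386 at 48h. The 0h and 12h libraries overlapped, and every 48h library was below them. The log2 difference of Ets1 from 0h to 48h was -1.78 ± 0.42 (SE), called lower, a call lost when only the 6 libraries compared were fitted.

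Gfi1 (chr5:107716657-107726036), a zinc finger repressor active in lymphoid and granulocytic cells, was at 0.757, 0.435 and 0.441 at 0h and at 4.04, 2.18 and 3.94 at 1h. It was at 1.52, 1.64 and 2.70 at 12h and at 0.303, 0.321 and 0.359 at 48h. The highest 12h library lay above the lowest 1h library, so these times overlapped. The log2 difference from 0h was 1.67 ± 0.31 (SE) at 12h, called higher, and -0.56 ± 0.31 at 48h, not called. With a pseudocount of 1 its 12h difference was 0.92, under the limit.

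Spen (chr4:141467890-141538597), a large RNA-binding corepressor, was at 2.46, 1.69 and 2.23 at 0h, at 11.4, 9.40 and 10.7 after 1h, at 6.53, 4.76 and 5.25 by 12h and at 5.12, 5.95 and 4.62 by 48h. It came down from the peak only in part. Relative to 0h the log2 difference was 1.34 ± 0.18 (SE) at 12h and 1.27 ± 0.18 at 48h, both called higher. With TPM as deposited (0.86) and with a pseudocount of 1 (1.00) the 48h difference was no longer called.

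E2f7 (chr10:110745439-110787384), an atypical E2F that represses cell cycle genes, was at 1.23, 1.28 and 1.26 at 0h, at 4.90, 3.66 and 2.93 after 1h, at 0.628, 0.476 and 0.495 by 12h and at 0, 0.432 and 0.306 by 48h. Its replicates were spread widely at 1h and closely at 0h. At 48h it was called lower than at 0h, with a log2 difference of -2.29 ± 0.50 (SE). With a pseudocount of 1 that difference was -0.87 and not called. The 12h difference was called lower (-1.11) when only the 6 libraries compared were fitted.

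Lmo4, a LIM-only adaptor of transcription complexes, was at 3.62 ± 0.388 (SD, n = 3), 10.4 ± 0.709, 6.20 ± 1.52 and 3.24 ± 0.864 at the 4 times. Plagl2, a zinc finger activator, was at 3.76 ± 0.0614 (SD, n = 3), 10.0 ± 0.496, 6.47 ± 0.197 and 4.22 ± 0.441. Neither Lmo4 nor Plagl2 was called at 12h or 48h against 0h, but with TPM as deposited both were called higher at 12h (1.07 and 1.10).

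Eid3 (chr10:82866626-82867930), an inhibitor of EP300-type coactivators, is a gene of 1 exon that lies inside Txnrd1 on the same strand. It was at 0, 0.315 and 0.298 at 0h, at 4.34, 4.36 and 3.88 after 1h, at 0.591, 1.11 and 1.24 by 12h and at 0.159, 0 and 0.293 by 48h. The order of the means was that of Txnrd1, 1h above 12h above 0h above 48h, but other members shared it, among them Lmo4, Ets1 and Tnrc6c. The 0h and 48h libraries of Eid3 overlapped, so its last step is not resolved. Reads of the host could be assigned to Eid3. Their part in the result was not tested. Relative to 0h the log2 difference at 12h was 2.03 ± 0.60 (SE), called higher. The call was lost without 0h replicate 1 (1.35), without 12h replicate 2 (1.92), without 12h replicate 3 (1.84), with a pseudocount of 1 or 0.01 and with only the 6 libraries compared.

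**Figure D2:**
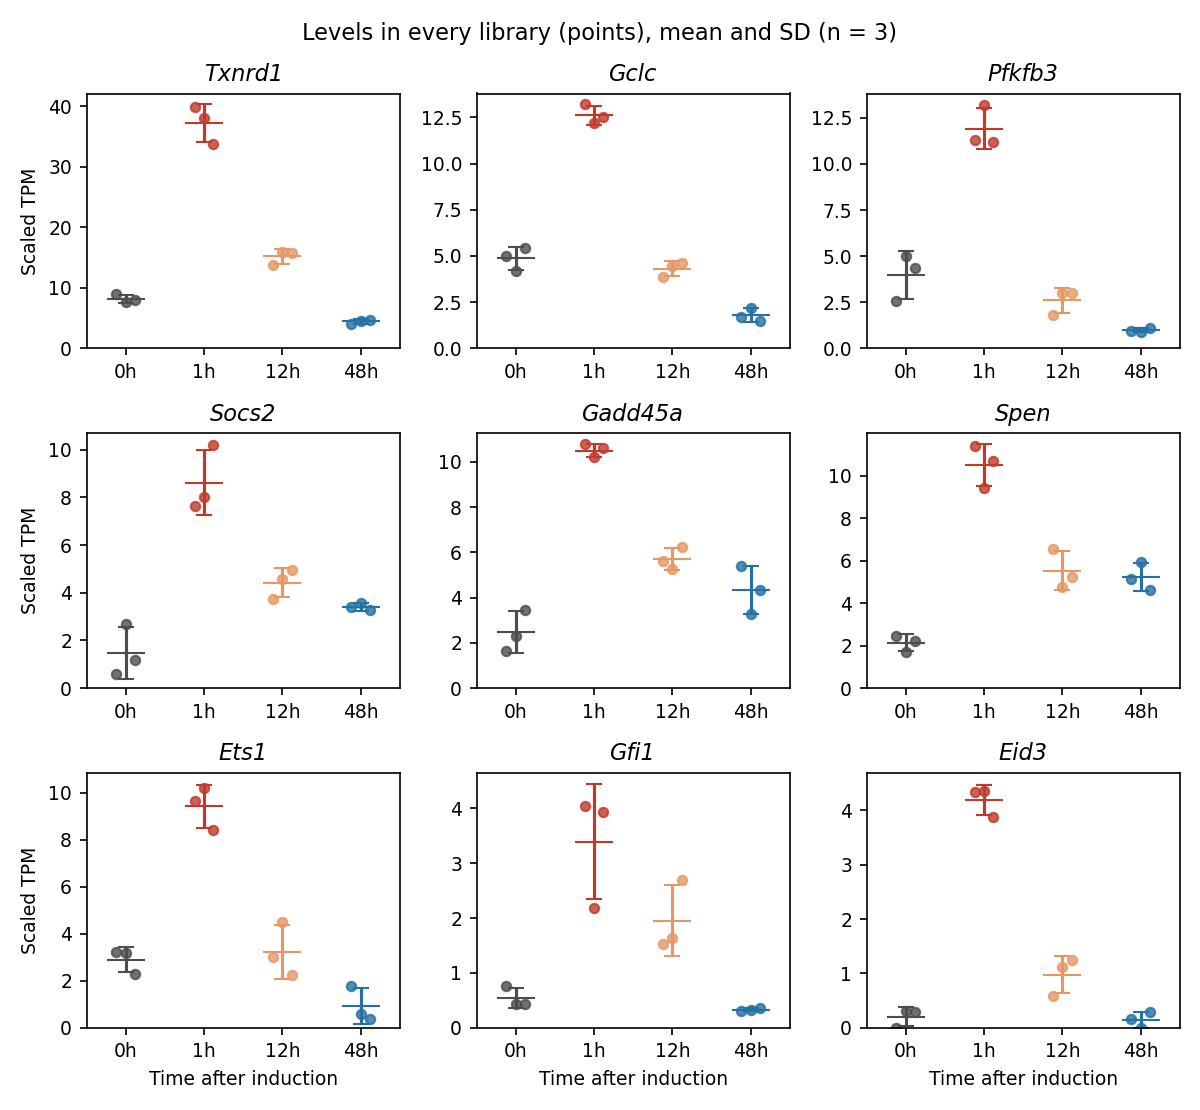
Scaled TPM of 9 members in each RNA-seq library (points) at 0h, 1h, 12h and 48h, with the mean (line) and SD (bars, n = 3) and a vertical axis from 0. Gclc, Pfkfb3 and Ets1 drop below their 0h mean by 48h, whereas Socs2, Gadd45a and Spen remain above it.

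Among signalling genes, Socs2 (chr10:95385362-95417180), a feedback inhibitor of cytokine receptors and a known STAT5 target, was at 0.582, 2.68 and 1.18 at 0h, at 7.65, 8.02 and 10.2 after 1h, at 3.74, 4.57 and 4.94 by 12h and at 3.39, 3.58 and 3.26 by 48h. Every induced library lay above every 0h library. The log2 difference from 0h was 1.74 ± 0.39 (SE) at 12h and 1.38 ± 0.39 at 48h, both called higher. Without 0h replicate 1 the 48h difference was 0.90 and not called, and with only the 6 libraries compared neither was called. At 48h the call also needed the scaling, since TPM as deposited gave 0.98.

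Gadd45a (chr6:67035096-67037457), a stress and DNA damage response gene, was at 1.63, 2.30 and 3.47 at 0h, at 10.8, 10.2 and 10.6 after 1h, at 5.62, 5.26 and 6.25 by 12h and at 5.40, 3.29 and 4.34 by 48h. Its 1h libraries were close to each other, and its 0h and 48h libraries overlapped. At 12h it was called higher than at 0h, with a log2 difference of 1.24 ± 0.25 (SE). Without 0h replicate 1 that difference was 0.98 and not called. The 48h difference of 0.83 ± 0.25 was not called with all libraries, and was called without 0h replicate 3 (1.10) or without 48h replicate 2 (1.01).

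Ano6, a calcium-activated phospholipid scramblase, was at 3.58 ± 0.464 (SD, n = 3) at 0h, 15.3 ± 1.11 after 1h, 8.66 ± 0.699 by 12h and 5.97 ± 0.215 by 48h. Its log2 difference from 0h was 1.26 ± 0.13 (SE) at 12h, called higher, and 0.73 ± 0.13 at 48h, not called. Aak1, a kinase of the endocytic adaptor AP2, was at 2.06 ± 0.292, 7.12 ± 1.23, 4.04 ± 0.54 and 4.61 ± 1.55 (SD, n = 3) at the 4 times. The log2 difference from 0h to 48h was 1.08 ± 0.23 (SE), called higher, and it lost the call without 0h replicate 1 (0.98), without 48h replicate 3 (0.83), with a pseudocount of 1 (0.84) and with TPM as deposited (0.68). One 48h library of Aak1, at 6.40, lay above the lowest 1h library, at 6.28.

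Pde7a, a cyclic AMP phosphodiesterase, was at 4.92, 5.62 and 5.23 at 0h, at 13.1, 11 and 12.5 after 1h, at 3.42, 2.13 and 2.15 by 12h and at 4.35, 3.82 and 3.61 by 48h. All 12h libraries were below all others. Its log2 difference from 0h to 12h was -1.04 ± 0.18 (SE), called lower and close to the 2-fold limit. It was not called without 0h replicate 2 (-0.99), without 12h replicate 2 or 3 (-0.93 each), with a pseudocount of 1 (-0.83), with TPM as deposited (-0.71) or with TPM rescaled without the 20 most abundant genes (-0.92).

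P2rx3 (chr2:84998583-85037462), an ATP-gated cation channel known from sensory neurons, was at 4.34, 2.17 and 3.77 at 0h, at 9.85, 8.99 and 9.19 after 1h, at 4.77, 4.64 and 3.92 by 12h and at 0.159, 0.530 and 0.466 by 48h. All 48h libraries were well below all others. At 48h it was called lower than at 0h, with a log2 difference of -2.91 ± 0.33 (SE). The gene overlaps Ssrp1 on the other strand. The library kit did not mark strand, so reads of such a pair cannot be told apart. The same limit holds for all 15 members that overlap a gene on the other strand, among them Spen (with Zbtb17), Btg3 (with Cxadr), Rasl10a (with Gas2l1), and Ano6, Chst15, E2f7, Ets1, Gadd45a, Gfi1, Mid1, Pde7a, Pfkfb3 and Txnrd1.

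Other signalling and trafficking genes are given by their means at 0h, 1h, 12h and 48h. Tbc1d20, a GTPase-activating protein for Rab proteins, was at 2.57, 13.7, 4.26 and 5.07. Mid1, a microtubule-bound ubiquitin ligase with the highest 1h level, was at 15.6, 43.1, 19.3 and 27.8. Ube2f, a NEDD8-conjugating enzyme, was at 4.25, 9.73, 6.38 and 6.01. None of these was called at 12h or 48h. Without 0h replicate 1, 0h replicate 3 or 48h replicate 1, Tbc1d20 was called higher at 48h (1.13 to 1.18), as it was with a pseudocount of 0.01 (1.01). With TPM as deposited it was called higher at 12h (1.09).

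Of lower genes, Tnrc6c, a component of miRNA silencing, was at 1.62, 5.75, 1.98 and 1.60, and Plxna3, a semaphorin receptor, at 1.37, 4.70, 1.22 and 2.18. Btg3, an antiproliferative protein, was at 1.27, 3.87, 1.72 and 1.3, and its 1h libraries were unequal at 5.66, 3.92 and 2.04. Chst15, a chondroitin sulfotransferase, was at 0.866, 3.47, 1.33 and 1.43, and Depdc7 at 1.01, 4.08, 1.42 and 0.680. Frat2, a binding partner of the kinase GSK3 in WNT signalling, was at 0.550, 2.38, 0.414 and 0.274. Rasl10a, a small Ras-like GTPase, was at 0.0882, 2.04, 0.396 and 0.0488. Tnrc6c, Plxna3, Btg3, Chst15 and Depdc7 were not called at 12h or 48h in the fit of all libraries, nor were Frat2 and Rasl10a. Rasl10a was called higher at 12h without 12h replicate 1 (1.78), and Frat2 lower at 48h without 0h replicate 2 (-1.18).

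Ighv14-2 (chr12:113994469-113994898) is an immunoglobulin heavy chain V segment, one of a family of similar sequences whose reads may be shared. It was at 0.582, 1.29 and 2.35 at 0h, at 3.91, 4.72 and 3.26 after 1h, at 0.309, 0 and 0 by 12h and at 0, 0 and 0.346 by 48h. All 1h libraries were above all others, and 4 of the 6 late libraries were at 0. The log2 difference from 0h was -3.05 ± 0.71 (SE) at 12h and -3.01 ± 0.71 at 48h, both called lower. Fold changes of genes with libraries at 0 depend on the 0.1 added.

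After the peak the members took different courses. The counts below describe the chosen genes and are not independent of the rule, which used the means of all 4 times. It held 0h under the tighter ceiling, and its ceiling on 12h and 48h limits how many members can be called higher. The shares of members and of all genes are therefore not a like comparison. At 12h, 6 of 30 members were called higher than at 0h (20%; Ano6, Eid3, Gadd45a, Gfi1, Socs2 and Spen), against 12.0% of all genes, and 2 lower (6.67%; Ighv14-2 and Pde7a), against 9.39%. At 48h, 3 were called higher (10.0%; Aak1, Socs2 and Spen), against 19.6% of all genes, and 7 lower (23.3%; among them E2f7, Ets1, Gclc, Ighv14-2, P2rx3 and Pfkfb3), against 17.6%. The median log2 difference of the members was 0.43 at 12h and -0.09 at 48h, beside 0.07 for all genes at both times. Of the 7 genes lower at 48h, only Ighv14-2 was called lower already at 12h, and E2f7 too when only the 6 libraries compared were fitted.

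**Figure D3:**
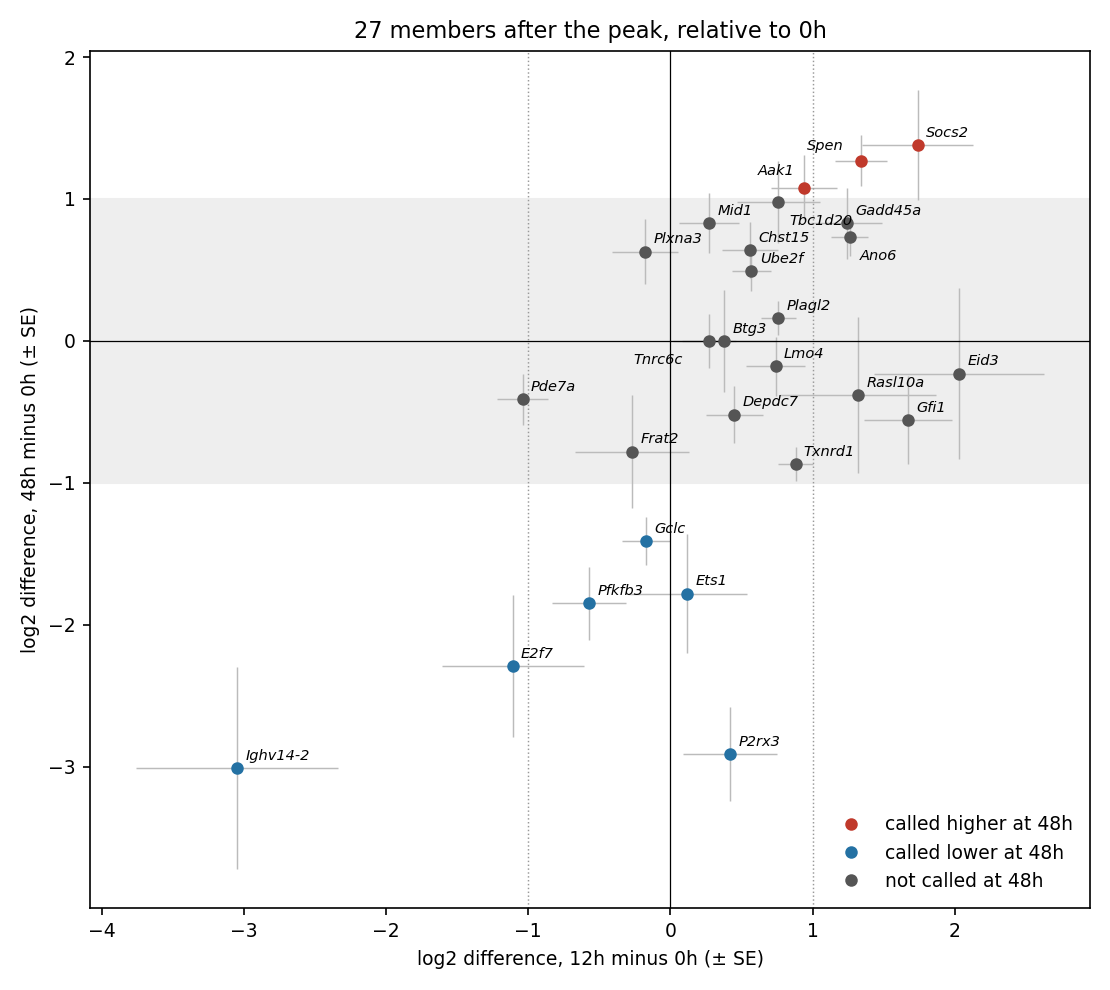
Log2 difference of scaled TPM (+ 0.1) at 12h (horizontal) and 48h (vertical) relative to 0h for 27 members, with standard errors from limma. The shaded band and dotted lines mark a fold change of 2. Socs2, Spen and Aak1 lie above the band and 6 genes lie below it, from Gclc at -1.41 to Ighv14-2 at -3.01.

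Classic early response genes were not among the members. Of 35 immediate early transcription factors in a fixed list, none met the rule. Of the 30 tested, 7 were called higher at 1h (Fosl2, Nr4a1, Nr4a3, Ier3, Mafg, Klf2 and Id1) and 9 lower, beside 4.08% and 2.83% of all genes, with a median log2 difference of -0.62 beside 0.02 over all genes. Fos, an AP-1 subunit, went from 11.2 ± 0.444 (SD, n = 3) at 0h to 1.29 ± 0.281 at 1h, a fall of 3.03 ± 0.17 (SE) on the log2 scale (limma adjusted p = 2.66e-06). Egr1 was at 13.3 ± 1.59 at 0h, 8.14 ± 0.506 at 1h and 24.3 ± 1.18 at 12h. Nr4a1, a nuclear receptor of the early response, was at 1.37, 6.18, 5.84 and 0.846 at the 4 times and so stayed up to 12h.

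The counts at 1h that follow stand beside 4.08% of all genes called higher and 2.83% lower. Feedback inhibitors held 1 member, Socs2, of 40 genes. Of the 36 tested, 4 were called higher at 1h (Socs2, Socs3, Nfkbiz and Trib1) and 4 lower (Dusp2, Dusp4, Dusp5 and Zfp36l2), with a median of 0.11. Socs3, the close relative of Socs2, was at 0.0728, 1.85, 5.14 and 5.53 and had no peak at 1h. Socs2 was also the only member of the 15 STAT5 response genes, of which 4 of 14 tested were called higher (Socs2, Socs3, Osm and Id1) and 3 lower at 1h, with a median of 0.26. Gadd45a was the only member of the 24 heat shock and stress genes, apart from the second Ddit3 row. Of the 20 tested, 2 were called higher at 1h (Hmox1 and Gadd45a) and 4 lower, with a median of -0.12. Gfi1 was the only member of 23 C/EBP family and myeloid transcription factors, of which 8 of 19 tested were higher and 5 lower, with a median of 0.53. There was no member among 40 cytokines and chemokines (7 of 19 tested higher, none lower, median 0.35) or 18 prostaglandin and leukotriene genes (3 of 10 higher, 2 lower, median 0.19).

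The labelled cell type was checked against its markers. None of the 18 Pre-B cell genes or 16 macrophage genes was a member. The summed scaled TPM of the Pre-B cell genes was 379 to 414 at 0h, 165 to 178 after 1h, 70.4 to 73.7 by 12h and 54.2 to 64.0 by 48h. Macrophage genes summed to 13.1 to 15.9 at 0h, 28.1 to 29.0 after 1h, 447 to 475 by 12h and 1567 to 1884 by 48h. Most of the rise of this sum at 1h was Ctsc, with means of 9.41 at 0h and 22.4 at 1h. Of the 15 macrophage genes tested, 3 were called higher at 1h than at 0h (Cd14, Mmp8 and Ctsc) and 1 lower (Cd68). Of the 18 Pre-B cell genes, 13 were called lower and 0 higher. Over all genes 4.08% were called higher and 2.83% lower. The part of the Pre-B cell and macrophage genes in the members' courses was not tested. In bulk samples fewer cells of a type and less RNA per cell cannot be told apart. T cell markers summed to at most 0.988 in any library, with Cd3e, Cd3g, Cd4, Trbc1 and Trbc2 at 0 throughout, and mast cell, basophil and eosinophil markers to at most 0.167, with 8 of 10 at 0. Erythroid genes reached 2.17 and fibroblast genes 2.07 at most, each with 6 of 10 at 0. Neutrophil and granule genes summed to under 1 at 0h and 1h and reached 12.6 at 12h, with Mpo, Ctsg and S100a9 at 0. The 3 tested, Camp, Prtn3 and S100a8, were all called higher at 12h than at 0h, against 12.0% of all genes. Their 12h means were 7.32, 1.96 and 1.48.

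The number of listed promoter interactions rose from 0h to 1h for some members and fell for others, as it did among other expressed genes. Of the 30 members, 25 had a start site in a captured HindIII fragment, and Eid3, Gfi1, Ighv14-2, Mid1 and n-R5s156 had none. Interactions were counted per gene in the merged lists, which hold 138769 interactions at 0h, 137836 after 1h, 131598 by 12h and 144072 by 48h. The median per member was 10.0 at 0h, 14.0 after 1h, 10.0 by 12h and 9.0 by 48h. For the 5356 genes with a scaled 1h mean of at least 2 and a bait it was 9.0, 9.0, 8.0 and 8.0. From 0h to 1h, 11 members gained interactions (44.0%, against 41.1% of those genes) and 14 lost them (56.0%, against 47.0%), and the median change was -1.0. Over the 16 members whose fragments hold no start site of another gene the medians were 7.0, 6.50, 7.50 and 11 at the 4 times, so their median was no higher at 1h than at 0h, and 8 gained and 8 lost interactions. With 1 list per time point there is no replicate error and no test, so a differing count is not a tested change of contact. In the paper's own test, 1h against 0h gave the fewest differential interactions of the times compared.

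The listed counts of single members differed in either direction. Plxna3 had 14 interactions at 0h, 27 after 1h, 13 by 12h and 9 by 48h, the largest gain at 1h. Ube2f went from 15 to 23, Chst15 from 8 to 15, Spen from 8 to 14 and Frat2 from 0 to 5 between 0h and 1h. Spen then had 2 at both 12h and 48h, while its RNA stayed above 0h. Losses were largest for Pde7a (59 to 34), Ets1 (18 to 5), P2rx3 (36 to 27), Tnrc6c (19 to 12) and Gadd45a (44 to 38). Pde7a had 45 at 12h and 42 at 48h, and Ets1 had 5 and 15. P2rx3 went on down to 14 and 6. Gadd45a reached 64 at 48h. The fragments of Chst15, P2rx3 and Gadd45a also hold start sites of other genes, so their interactions cannot be assigned to the member alone. Of the 415 interactions of the members at 0h, 56.1% were also listed at 1h, against 61.2% for the expressed genes and 59.7% for all genes with a bait. Gclc, the member with most interactions at 1h (56), kept 69.5% of its 59, and Txnrd1 had 2 at 0h and 1 at 1h.

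**Figure D4:**
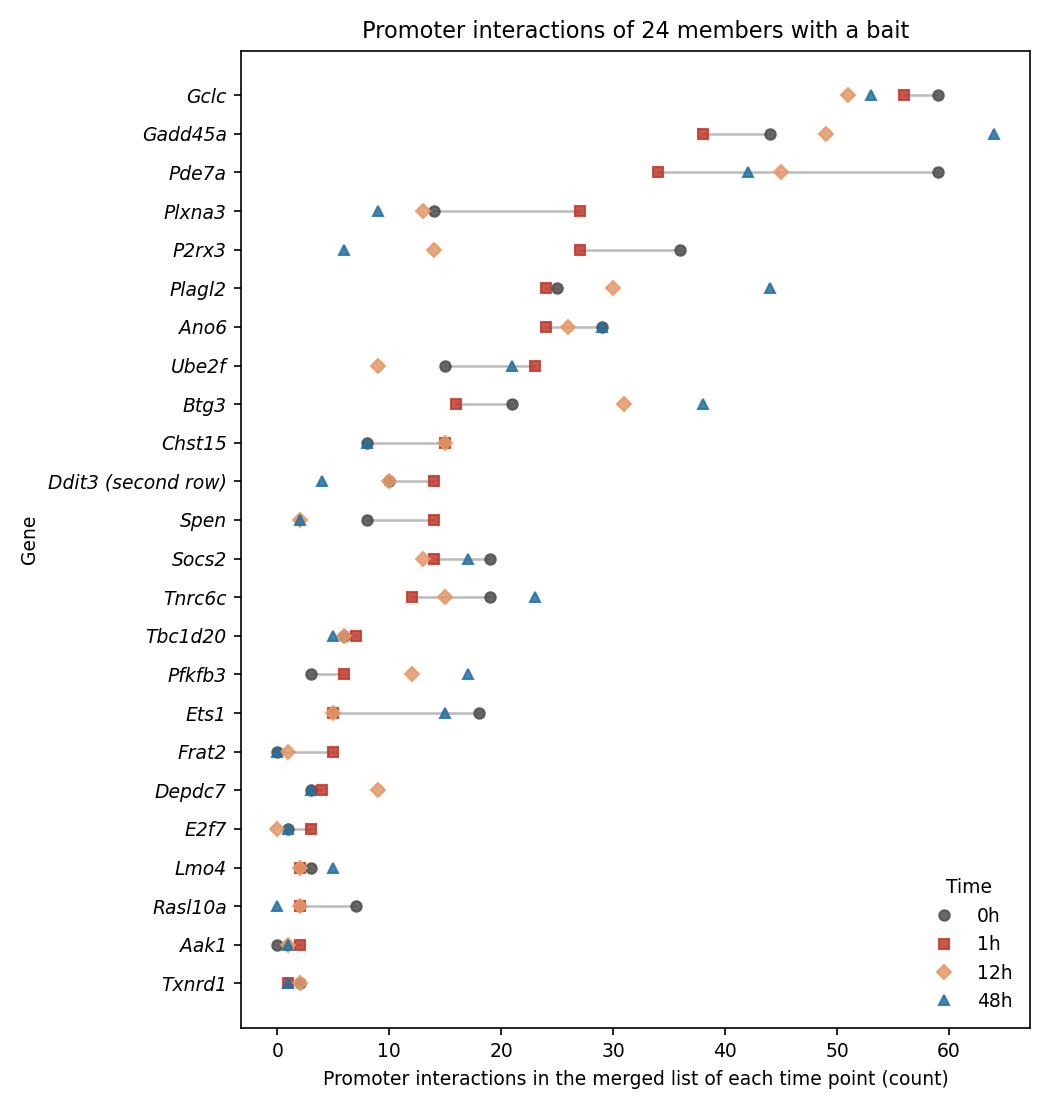
Number of promoter interactions (horizontal, count) in the merged PCHi-C list of each time point for 24 members with a captured promoter (rows, by the 1h count), with a grey line from 0h to 1h. Pde7a and Ets1 move left from 0h to 1h, Plxna3 moves right, and the 2 directions are mixed.

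Gene structure was compared as a description. The 28 protein-coding members spanned a median of 39.4 kb (quartiles 12.6 and 81.7), beside 24.2 kb (10.6 and 51.3) for 5535 other protein-coding genes with a scaled 1h mean of at least 2. Spans ran from 1.3 kb (Eid3) to 321 kb (Mid1), and 7 members (25%) were under 10 kb, against 23.5% of the others. The median number of exons was 8.5 for members and 11 for the others, and the exonic length 6.23 kb and 4.75 kb. Longest 3′ UTRs per gene had a median of 1852 bases in members and 1304 in the others. TATTTAT, a core of the AU-rich elements that mark unstable transcripts, was in 12 of 28 (42.9%) against 28.7%, which per kb was 0.247 against 0.253. The members had higher 1h levels (median 9.38 against 4.60 scaled TPM). Except for Eid3 in Txnrd1, no member lay within 10 kb of another, and the next nearest pair was Tbc1d20 and Plagl2, 913763 bases apart on chromosome 2.

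Several genes lay close to the thresholds. Just inside were Ube2f (2.29 times 0h and 1.52 times 12h), Plagl2 (1.55 times 12h), Aak1 (1.54 times 48h) and Mid1 (1.55 times 48h). Next nearest inside were Ighv14-2 and Pde7a for the ratio to 0h and Lmo4 for the ratio to 12h. For the 1h level they were Rasl10a (2.04), Frat2 (2.38) and, farther off, the second Ddit3 row (3.03). Just outside was Mafg, a small MAF protein, at 2.14 at 0h, 11 after 1h, 7.50 by 12h and 4.04 by 48h, which missed the 12h ratio. Ptgir, the prostacyclin receptor (0.844, 7.27, 5.43 and 3.13), and Klf2 (4.21, 10.4, 8.41 and 4.15) also missed that ratio. Ankrd33b, D230025D16Rik and Atg101 missed the ratio to 0h, Atp10d, Cpt1a and Dennd4a the ratio to 48h, and n-R5s200, Cpeb2 and 1700001K23Rik the 1h level. Mean size factors were 0.930 at 0h, 1.47 after 1h, 1.18 by 12h and 0.699 by 48h, so scaling lowered the 1h values most. In TPM as deposited, where the median gene was 0.59 higher at 1h than at 0h on the log2 scale (0.02 after scaling), 226 genes met the rule, including all 30.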

How the data were processed

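RNA-seq of 12 libraries and PCHi-C lists of 4 time points were analysed, and Hi-C was not used here. The authors removed rRNA, merged technical replicates, trimmed reads (Trim Galore 0.6.2 in the submitters' processing notes), mapped them (HISAT2 2.1.0 there) to mm10 and deposited RSEM TPM, which keep no depth, so the precision from counting is unknown and the spread over 3 replicates is the error given. All gene identifiers (100%) matched GENCODE M21. The authors called interactions with CHiCAGO on 2 merged replicates. Values in the deposited list of 0h are CHiCAGO scores, and the deposited 1h, 12h and 48h lists hold whole numbers whose unit is not named. Neither value was used.

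Size factors came from the 11246 genes above 0 in all libraries. Genes whose TPM averaged 0.1 or more (16415) were fitted with limma 3.58.1 in R 4.3.3 (lmFit, eBayes with trend, 4 time points, Benjamini-Hochberg) on log2(scaled TPM + 0.1). The fit was tested on simulated data. Other steps used Python 3.11.15, numpy 2.4.6 and pandas 2.3.3. An interaction was counted for a gene when either end was a bait fragment with one of its start sites.

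Members and lists were chosen with earlier results of these data known. Genes named are the 10 members with the highest 1h mean, the 10 with the largest peak ratio, members of fixed lists, the 5 with the largest and smallest differences at 12h and 48h, the 5 largest gains and losses of interactions, the 3 nearest each threshold and members that overlap. Other members and list genes named were chosen after their values were seen. Alternatives varied the pseudocount, filter, scaling, trend, libraries, replicates and thresholds. Values of 1 member are not reported here, though counts and medians over the members include it.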

Additional observations from a re-analysis of the deposited data

How the results depend on the processing

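With TPM as deposited 226 genes met the rule (30 with scaling), and 65.2% of the genes chosen on 2 replicates meeting it in the other became 40.3%. With a 1h mean of at least 5 these were 18 and 75%. Leaving out single replicates gave 29 to 34 genes, not always the same ones. Without 1h replicate 1, 27 of the 30 remained, E2f7, Btg3 and Rasl10a dropped out and several rRNA copies entered. Without 1h replicate 2, 26 remained, and Mid1 and Ighv14-2 were among those lost. Members called higher at 1h than at 0h numbered 26, 22 to 24 without single replicates and 10 with a log2 fold change beyond 2. At 12h, 6 were higher, and 3 with a pseudocount of 1, 11 with TPM as deposited, 11 with no fold threshold, 1 beyond a log2 of 2 and 4 to 7 without single replicates. The 2 lower became 1 with a pseudocount of 1, TPM as deposited, TPM rescaled without the 20 most abundant genes or a log2 beyond 2, 3 with only the 6 libraries compared, and 1 to 2 without single replicates. At 48h, 3 were higher, and 0 with a pseudocount of 1, TPM as deposited or a log2 beyond 2, 10 with no fold threshold and 2 to 5 without single replicates. The 7 lower became 3 beyond a log2 of 2 and 6 to 8 without single replicates. The median of 14.0 interactions per member at 1h was 6.50 over genes alone on their baits and 13.0 under 1 Mb. The causes were not tested. Of 107 alternatives for these counts, the percent in unseen replicates and the median of interactions, 84 stayed near the main value. Near meant within 1.5 times, or for the percent a difference under the SD of the rounds. No called difference of a member from 0h at 12h or 48h changed sign, and 12 that were not called did in some alternative (among them Btg3, Tnrc6c and Eid3 at 48h).

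The libraries were fitted as unpaired, since the labels tie no number to a shared culture and not every same-numbered pair exceeded a correlation of 0.1. Deviations of same-numbered libraries correlated from -0.0109 to 0.257 (median 0.0796), over 0.1 in 7 of 18 pairs, and of different-numbered libraries from -0.183 to 0.105 (median -0.0629, over 0.1 in 1 of 36). Libraries of replicate 3 did deviate together (0.0814 to 0.257, over 0.1 in 5 of 6 pairs), with negative correlations to all libraries of other numbers, while libraries of replicate 2 did not correlate best with their own number. With a replicate block the counts stayed at 26 (higher at 1h), 6 and 2 (higher and lower after 12h) and 3 and 7 (the same after 48h).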
